A study of Mus musculus with 4 samples.

Results

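Homeobox transcription factor genes were followed through an assay of transposase-accessible chromatin (ATAC-seq), in which a transposase cuts open DNA and the sequenced tags pile up at accessible promoters and enhancers. The members were the regions whose nearest gene carried a symbol of the LIM, TALE, NK-like, sine oculis, paired, zinc finger, CUT, POU or HOP homeobox families, without Lhx2, Lhx9 and Nkx2-2. This name rule used no measured value and gave 169 of 29121 regions, assigned to 76 of 15091 genes. A promoter region lay at most 1000 bases from its gene's start site, and all others were called distal. There were 46 promoter regions in 43 genes and 123 distal regions in 61 genes, so 28 genes had both kinds, 15 had only promoter regions and 33 had only distal ones. A distal region belonged to a gene only by being nearest to its start, which does not show that it acts on that gene. Among the 76 names were 2 noncoding transcripts, Nkx2-2os and Zfhx2os, and the 3 pseudogenes Pou5f1-rs4, Pou5f1-rs5 and Pou5f1-rs6.

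The cells were neurospheres, floating clusters of neural stem and progenitor cells, grown from the hippocampus of C57BL/6 mice at postnatal day 0 and cultured for 7 days with FGF-2 and EGF at 20 ng/ml each. The 2 control libraries came from hGFAPCre+, Fgf13+/y cultures and the 2 Fgf13cko libraries from hGFAPCre+, Fgf13 flox/y cultures, so both groups carried Cre, driven by the human GFAP promoter, and differed in the floxed allele of the X-linked Fgf13 gene. Which exon is floxed is not stated in the labels. Nor do they tell whether replicate cultures had different mice as their source, and 1 mouse gave cells for 2 wells, so a p-value here reflects only the variation among these 4 samples, which may be technical.

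Homeobox genes encode transcription factors that bind DNA through the homeodomain, and many hold the regional and cell type identity of the developing nervous system. Their classes differ in the domains that accompany the homeodomain. LIM factors carry protein-binding LIM domains, POU and CUT factors carry a further DNA-binding domain, TALE factors act as partners of other homeodomain proteins, and the Zeb and Zfhx factors combine the homeodomain with zinc fingers. Developmental homeobox genes often sit in gene deserts with many distant enhancers.

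The nuclear regions held 2.55 to 3.25 M tags per library. Mitochondrial DNA took 67.7% and 68.4% of region tags in control libraries, but 38.5% and 31.5% in Fgf13cko ones, a difference that followed the groups and whose part in the results was not tested. Fgf13 itself had promoter levels of 189 and 182 normalised tags (controls) and 207 and 162 (Fgf13cko), which does not check the deletion because the position of the floxed exon is not known from the labels. Of 9 forebrain and hippocampal identity genes, 8 had an accessible promoter, with summed levels of 1262 and 1333 (controls) and 1450 and 1377 (Fgf13cko). Of these 8 promoters, Fabp7 (log2 fold change 0.81, adjusted p = 0.0237) and Nes (0.80, 0.0492) rose and 1 fell, and 2 of 8 distal sums rose, those of Fabp7 and Prox1. None of 6 posterior Hox genes had a promoter region. Promoters of 4 of 6 neuron markers summed to 388 and 411 in the controls against 643 and 706 in Fgf13cko, where Map2 (adjusted p = 0.0450) and Syt1 (adjusted p = 0.0161) rose, while Tubb3 read 27.3, 18.2, 16.7 and 27.7 and Dcx and Rbfox3 had no promoter region. Summed astrocyte markers (5 of 7 genes) ranged from 455 to 521 against 514 to 581 in Fgf13cko, and oligodendrocyte markers (4 of 7) from 532 to 570 and 575 to 686. Of 5 microglial markers 1 had a promoter region, at 39.0 and 26.4 against 11.1 and 23.1, with Aif1, Cx3cr1, Csf1r and Itgam without one. The 1 microglial distal sum tested went the other way (log2 fold change 0.91, not called). Of 5 astrocyte distal sums 1 rose and 1 fell, and of 5 oligodendrocyte sums 1 rose (all genes: 8.41% rose, 3.73% fell). None of 4 neuron distal sums was called. Of 4 endothelial markers 1 had a promoter region (74.1, 61.1, 68.9 and 69.4), and none of 4 meningeal fibroblast markers did. The part of these marker levels in the results on homeobox genes was not tested. In bulk chromatin, fewer cells of a type and less accessibility per cell cannot be told apart.

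Values below are normalised tags, the estimated tag counts divided by a scale factor for each library, and a log2 fold change is Fgf13cko over control. Promoter sums, distal sums and single regions were fitted separately, each with its own scale. A change was called at a Benjamini-Hochberg adjusted p under 0.05 in edgeR's quasi-likelihood test over all features of that kind.

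Promoter sequences are shown for 3 members whose regions carry the results below. They are the RefSeq windows on build GRCm38.p6 (mm10) from 250 bases before to 50 bases after the start site, read 5′ to 3′ on the gene's minus strand. Msx3 (chr7:140049039-140049338) is shown as the promoter that rose, Gbx2 (chr1:89931127-89931426) as a promoter with a called distal region, and Nkx6-2 (chr7:139582748-139583047) as the start site whose distal sum had the smallest p. The Gbx2 and Nkx6-2 windows were chosen after their values were seen. Capitals mark an E-box CACCTG, the sequence recognised by ZEB factors.
Msx3: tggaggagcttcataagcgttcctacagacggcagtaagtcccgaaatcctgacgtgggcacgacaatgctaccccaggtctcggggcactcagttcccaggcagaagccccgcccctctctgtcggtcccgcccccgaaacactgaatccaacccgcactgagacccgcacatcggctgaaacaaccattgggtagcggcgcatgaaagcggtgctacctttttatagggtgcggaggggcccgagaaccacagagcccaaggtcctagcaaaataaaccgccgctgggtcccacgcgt
Gbx2: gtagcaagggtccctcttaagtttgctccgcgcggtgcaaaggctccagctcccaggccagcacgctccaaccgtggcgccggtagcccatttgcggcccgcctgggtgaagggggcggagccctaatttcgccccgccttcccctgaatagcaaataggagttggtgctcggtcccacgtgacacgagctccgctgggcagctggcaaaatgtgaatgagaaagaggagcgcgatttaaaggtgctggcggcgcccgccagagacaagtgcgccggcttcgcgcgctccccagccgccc
Nkx6-2: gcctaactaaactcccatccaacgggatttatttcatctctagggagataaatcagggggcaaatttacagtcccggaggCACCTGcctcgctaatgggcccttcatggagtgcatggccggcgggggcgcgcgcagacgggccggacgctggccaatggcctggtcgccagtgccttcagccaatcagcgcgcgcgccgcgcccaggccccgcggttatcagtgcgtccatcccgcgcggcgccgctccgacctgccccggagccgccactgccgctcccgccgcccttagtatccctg
The Msx3 window had 60% GC and 22 CpG dinucleotides, the Gbx2 window 64.7% GC and 27 CpG, and the Nkx6-2 window 66.7% GC and 32 CpG. The table of windows held 65 windows for 51 of the 76 genes, and their median GC was 60% with 18 CpG, against 52.7% and 7 over all 32851 windows. Short motifs were searched on both strands. The homeodomain core TAATTA stood in 2 of 65 member windows (3.08%, all windows 5.29%). TGACAG, bound by MEIS and other TALE factors, stood in 11 (16.9%, all 19.2%). CACCTG stood in 12 (18.5%, all 20.2%), and the POU octamer ATGCAAAT in 0 (all 1.74%). A match is only a description of the letters in these windows.

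At promoters, 2 of the 43 homeobox genes were called (4.65%), against 2.43% of all genes, a count too small to compare. All 43 promoter sums were tested among 11116 genes. Msx3 rose and Otx1 fell, which is 1 of 43 in each direction against 1.95% of all genes that rose and 0.477% that fell. The log2 fold change was positive in 30 and negative in 13, with a median of 0.04 (all genes: -0.01). On the scale of the single-region fit the split became 18 positive and 25 negative with a median of -0.05, so it gives no direction for the promoters as a group. Both Fgf13cko libraries lay above both controls in 13 members and below in 5, against 26.1% and 25.2% of all genes. The median absolute log2 ratio between the libraries of a group was 0.16 for the controls and 0.24 for Fgf13cko. With control 1 or control 2 left out, the log2 fold changes were -1.2 and -1.04 for Otx1 and 1.34 and 0.944 for Msx3. Such a fit rests on a lone control, so it cannot show whether either call holds.

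Otx1, a paired-like factor of forebrain and sensory organ patterning (chromosome 11, 21994764 to 22001651), had promoter levels of 237 and 268 against 126 and 106 in Fgf13cko. Both Fgf13cko libraries were below both controls. The promoter sum fell by 1.12 on the log2 scale (SE 0.17, adjusted p = 0.00719). Its 3 distal regions differed in sign. The region in its own exon, 5085 bases from the start, read 156, 157, 178 and 138 (log2 fold change 0.01), a region in an intron of Ehbp1 read 53.3, 58.8, 41.0 and 49.3 (-0.31, adjusted p = 0.564), and a region in an intron of Wdpcp read 31.6, 36.3, 58.1 and 52.4 (0.70, adjusted p = 0.212). Neither of the intron regions was called, and the distal sum read 244, 260, 285 and 223. Without control 1 and without control 2 the log2 fold change of the Otx1 promoter was -1.20 and -1.04. The promoter of Pax6, the paired factor that maintains cortical and hippocampal progenitors, read 314 and 337 against 371 and 298 (log2 fold change 0.04, adjusted p = 0.927). The Pax6 libraries of the groups overlapped.

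Msx3, an NK-like factor of the dorsal neural tube (chromosome 7, 140046157 to 140049088), had promoter levels of 58.5 and 44.6 against 120 and 106 in Fgf13cko. Both Fgf13cko libraries were above both controls. The sum rose by 1.14 on the log2 scale (SE 0.22, adjusted p = 0.0240), but DESeq2 did not call it (adjusted p = 0.109). Without control 1 and without control 2 the log2 fold change of the Msx3 promoter was 1.34 and 0.944. Its distal region, 9108 bases upstream, read 34.1 and 53.4 against 82.5 and 66.0 in the distal fit (log2 fold change 0.75, adjusted p = 0.163).

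The NK-like class had the highest median among promoter classes with more than 1 gene, 0.51 over 9 genes. The log2 fold change was positive in all 9 on the promoter scale, and in 8 of 9 on the single-region scale. In 7 of the 9 both Fgf13cko libraries were above both controls, against 26.1% of all promoters, in a class singled out here for its median, and only Msx3 passed the test. Nkx3-2, a factor of skeletal development, read 41.0 and 43.0 against 81.2 and 72.8 (log2 fold change 0.87, adjusted p = 0.0861). Gbx2, a factor of the midbrain-hindbrain boundary, read 37.1 and 40.5 against 63.4 and 68.2 (0.76, adjusted p = 0.152). Vax2, a factor of ventral eye patterning, read 81.9 and 62.8 against 122 and 83.2 (0.51, adjusted p = 0.266), so its second Fgf13cko library barely passed the higher control. These promoters were low, with a class median of 48.7 normalised tags in the controls against 92.9 for all members and 107 for all genes.

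The other classes lay near 0 at their promoters. TALE promoters had a median of -0.03 (9 genes), POU -0.04 (7), zinc finger 0.05 (5), CUT 0.03 (4), LIM 0.01 (3) and sine oculis 0.14 (2). Pou3f2 (Brn2), a POU factor of upper-layer neurons and neural progenitors, had the highest control level, with 620 and 539 against 458 and 390 (-0.45, adjusted p = 0.129). Pou2f1 (Oct-1), a widely expressed POU factor, followed with 434 and 484 against 476 and 377 (-0.11, adjusted p = 0.755). In Pou3f2 both Fgf13cko libraries were below both controls without passing the test, and in Pou2f1 the groups overlapped. The Pou3f2 promoter passed in the crossed pairing (adjusted p = 0.0383). That pairing was chosen after seeing the data and called 7.4% of all promoters, against 2.43% in the fit reported. With single libraries left out, the Pou3f2 log2 fold change ranged from -0.568 to -0.336. Hopx, a small homeodomain protein that does not bind DNA and marks quiescent stem cells of the dentate gyrus, read 91.7 and 94.2 against 127 and 136 (0.50, adjusted p = 0.159).

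Among the remaining factors of neural progenitors, no promoter passed the test. Meis1, a TALE factor, read 254 and 258 against 259 and 236 (-0.05, adjusted p = 0.903). Zeb2, a repressor that binds E-boxes, read 238 and 274 against 242 and 222 (-0.14, adjusted p = 0.652). Its relative Zeb1 read 54.6 and 41.3 against 57.8 and 34.7 (-0.04, adjusted p = 0.962). In none of these 3 were the groups apart. Zfhx3 read 44.9 and 44.6 against 44.5 and 48.6 (adjusted p = 0.948), and Zfhx4 read 76.1 and 49.6 against 93.4 and 62.4 (adjusted p = 0.570). Cux1 read 172 and 183 against 222 and 187 (adjusted p = 0.522), and Onecut2 read 117 and 82.6 against 88.9 and 116 (adjusted p = 0.951). Of these Cux1 alone had both Fgf13cko libraries above both controls. Pou4f2 and Lhx1 were among the lowest promoters. Pou4f2 (Brn3b), a factor of retinal ganglion cells, read 23.4 and 16.5 against 3.34 and 37.0, so the Fgf13cko libraries lay on opposite sides of the controls and its log2 fold change of 0.01 has an SE of 0.85. Lhx1 read 23.4 and 17.4 against 24.5 and 35.8.

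**Figure D1:**
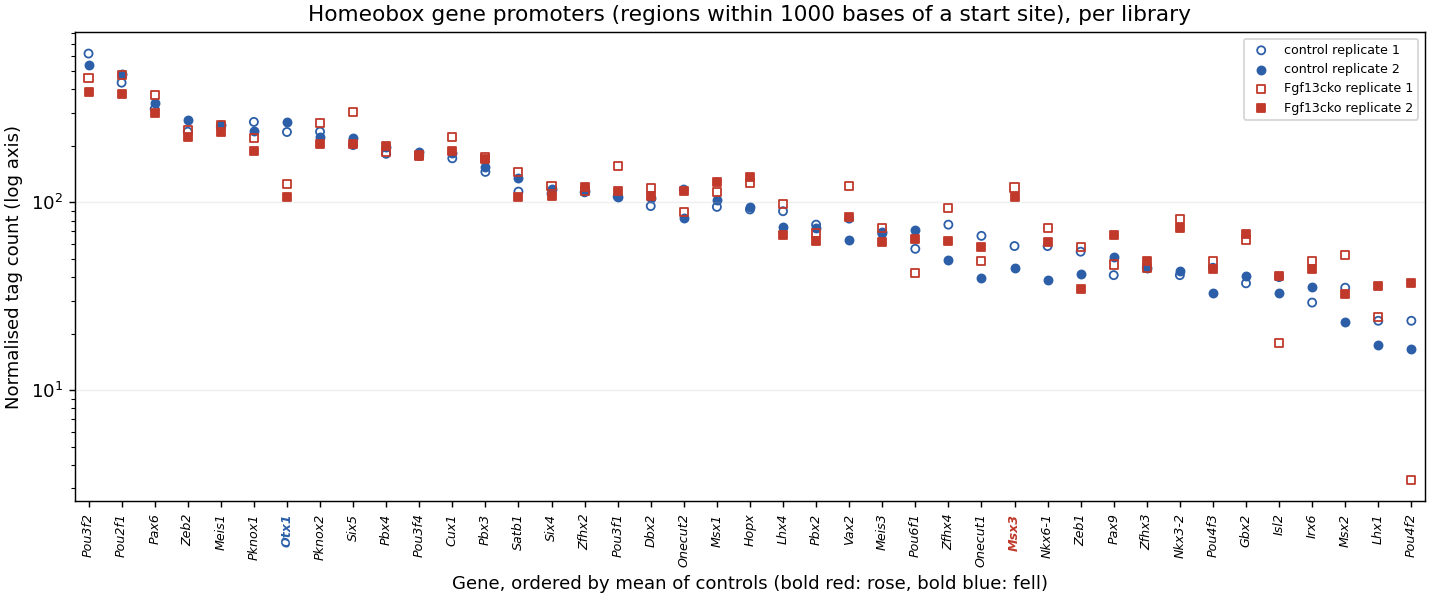
Promoter levels of 41 of the 43 tested homeobox genes in normalised tags on a log axis, ordered by the mean of the controls, with 1 point per library (circles control, squares Fgf13cko). Otx1, at 237 and 268 in the controls, drops to 126 and 106, and Msx3 moves from 58.5 and 44.6 to 120 and 106, while most other genes overlap or stay close.

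At distal regions, 5 of the 61 homeobox genes tested rose, against 8.41% of the 8441 genes tested, and 0 fell, against 3.73%. The 5 were Nkx6-2, Pou2f1, Gbx2, Pou5f1-rs5 and Dbx1. By edgeR, 13 members had an unadjusted p under 0.05 with a higher Fgf13cko level and 0 with a lower one. In either direction 2416 of all 8441 genes had such a p. Those were not split by direction, so the split of the members has no background here. DESeq2 called 5 members higher and 0 lower, against 530 and 259 of all genes. The log2 fold change was positive in 37 and negative in 24, with a median of 0.13 (all genes: 0.01), and positive in 31 and negative in 30 when libraries were scaled by their size alone. Both Fgf13cko libraries lay above both controls in 22 members and below in 12, against 31.7% and 27.7% of all genes. Control levels were lower than for genes at large, with a median of 55.0 against 84.1.

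Nkx6-2, an NK-like factor of the ventral neural tube and of oligodendrocytes (chromosome 7, 139579376 to 139582797), had 5 distal regions and no promoter region. Its distal sum was 350 and 411 against 868 and 741 in Fgf13cko. Both Fgf13cko libraries were above both controls, and the sum rose by 1.08 (SE 0.15, adjusted p = 0.00682). Without control 1 the log2 fold change was 0.91. That fit rests on a lone control, so it cannot show whether the call holds.

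Gbx2 (chromosome 1, 89927962 to 89931176) had 1 distal region, inside an intron of Agap1. It read 36.1 and 37.4 against 113 and 93.2 in Fgf13cko, and rose by 1.48 (SE 0.27, adjusted p = 0.0146). Dbx1, a factor of interneuron progenitors in the ventral neural tube (chromosome 7, 49631499 to 49636835), read 162 and 226 against 410 and 284 over 3 regions and rose by 0.83 (SE 0.23, adjusted p = 0.0495). That call was lost with library size scaling (adjusted p = 0.0675), with no count filter (0.0529) and with a mean of at least 50 tags (0.0518). It was also lost within 100 kb of the start (0.867), which removed its strongest region. Fits without control 1 or control 2 rest on a lone control, so they cannot show whether the call holds for Gbx2 or Dbx1. In both genes the Fgf13cko libraries were above both controls.

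Pou2f1 (chromosome 1, 165865150 to 166002749) read 87.3 and 93.4 against 224 and 179 in Fgf13cko over 3 distal regions. Both Fgf13cko libraries were above both controls, and the sum rose by 1.15 (SE 0.20, adjusted p = 0.0131). Here too a fit without control 1 or control 2 rests on a lone control and cannot show whether the call holds. The single region of Pou5f1-rs5, a pseudogene copy of the pluripotency factor gene Pou5f1, read 93.3 and 88.9 against 288 and 172 (1.33, SE 0.26, adjusted p = 0.0186). The groups were apart there too, though the Fgf13cko libraries differed widely from each other.

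Other distal sums were not called. Zeb1 read 232 and 237 against 378 and 304 (0.54, adjusted p = 0.0684), and it passed on the single-region scale (adjusted p = 0.0296). Irx1, a TALE factor, read 36.1 and 29.3 against 66.0 and 59.2 (0.93, adjusted p = 0.0819), and Pax8 read 105 and 97.8 against 230 and 132 (0.82, adjusted p = 0.0845). In these 3 both Fgf13cko libraries were above both controls. Meis2, with 8 distal regions, read 345 and 364 against 402 and 395 (0.17, adjusted p = 0.459), and Meis1 read 211 and 213 against 316 and 234 (0.37, adjusted p = 0.232). Hopx read 365 and 421 against 474 and 505 (0.32, adjusted p = 0.191). Both Fgf13cko libraries were above both controls in Meis2, Meis1 and Hopx.

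Further distal sums, lower or higher in Fgf13cko, also stayed short of the threshold. Zeb2 read 136 and 164 against 121 and 107 (-0.40, adjusted p = 0.232), and it passed when only regions within 100 kb were summed (-1.19, adjusted p = 0.0366). Cux2, a CUT factor of upper-layer neurons, read 48.2 and 41.8 against 22.4 and 36.9 (-0.59, adjusted p = 0.336). In both genes the Fgf13cko libraries were below both controls. Pax6 read 284 and 281 against 285 and 190 (-0.26, adjusted p = 0.448). Pou3f2 read 133 and 132 against 139 and 107 (-0.11). Six3, a sine oculis factor of the anterior forebrain, read 53.2 and 56.9 against 90.8 and 41.7 (0.25, adjusted p = 0.704). Isl1, a LIM factor, read 22.1 and 16.0 against 43.6 and 19.4 (0.71, adjusted p = 0.420). Zfhx3 read 305 and 281 against 283 and 357 (0.13, adjusted p = 0.649). Onecut2 had a log2 fold change of 0.42 (adjusted p = 0.275), with both Fgf13cko libraries above both controls. In Pax6, Pou3f2, Six3, Isl1 and Zfhx3 the groups overlapped. The NK-like class, positive at all its promoters on the promoter scale, was split at distal regions, with 9 positive, 10 negative, 3 called higher and a median of -0.25. That median turned to 0.05 with loess offsets.

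**Figure D2:**
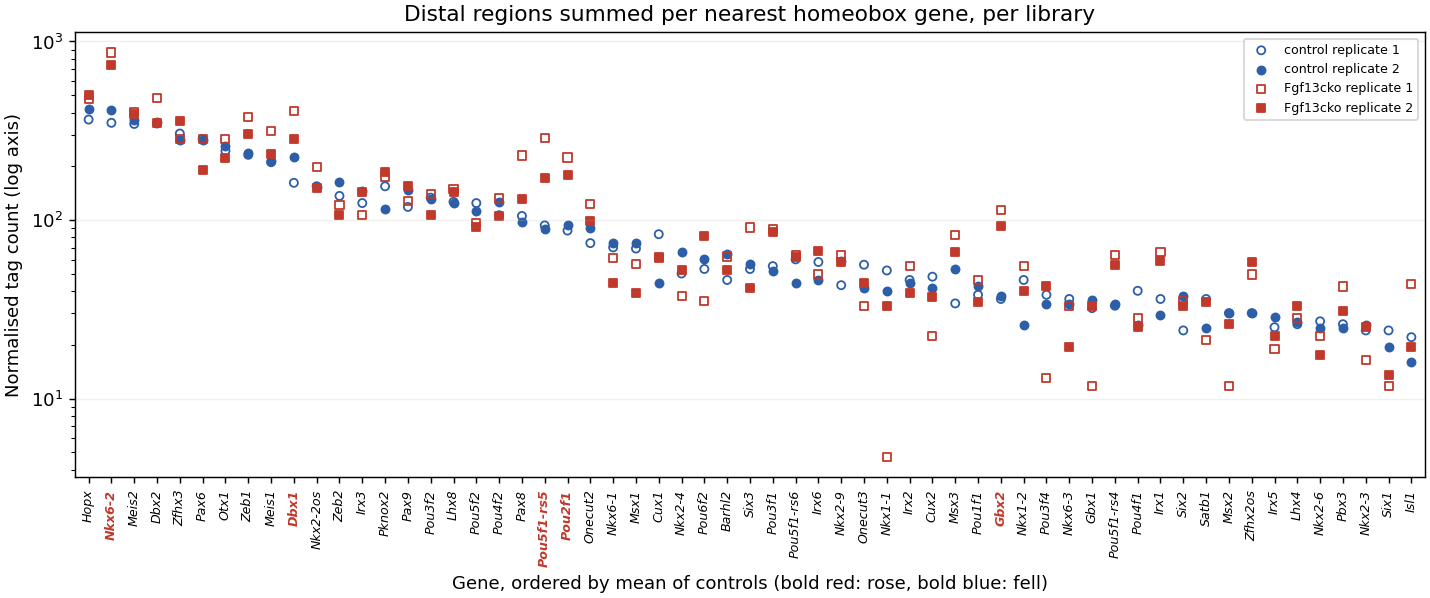
Distal sums of 59 of the 61 tested homeobox genes in normalised tags on a log axis, ordered by the mean of the controls, with 1 point per library (circles control, squares Fgf13cko). The 5 genes named in bold red rose, among them Nkx6-2 from 350 and 411 to 868 and 741, and no gene is named in bold blue.

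Across the 28 genes with both kinds of region, promoter and distal log2 fold changes correlated at r = 0.21 (Pearson), and 16 of 28 had the same sign. Over all 4558 such genes r was 0.14 and 2483 had the same sign. Both measures come from the same 4 libraries, so these values only describe them. Gbx2 and Msx3 lay high on both measures, Otx1 was low at its promoter alone, and Pou2f1 was high at its distal regions alone.

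**Figure D3:**
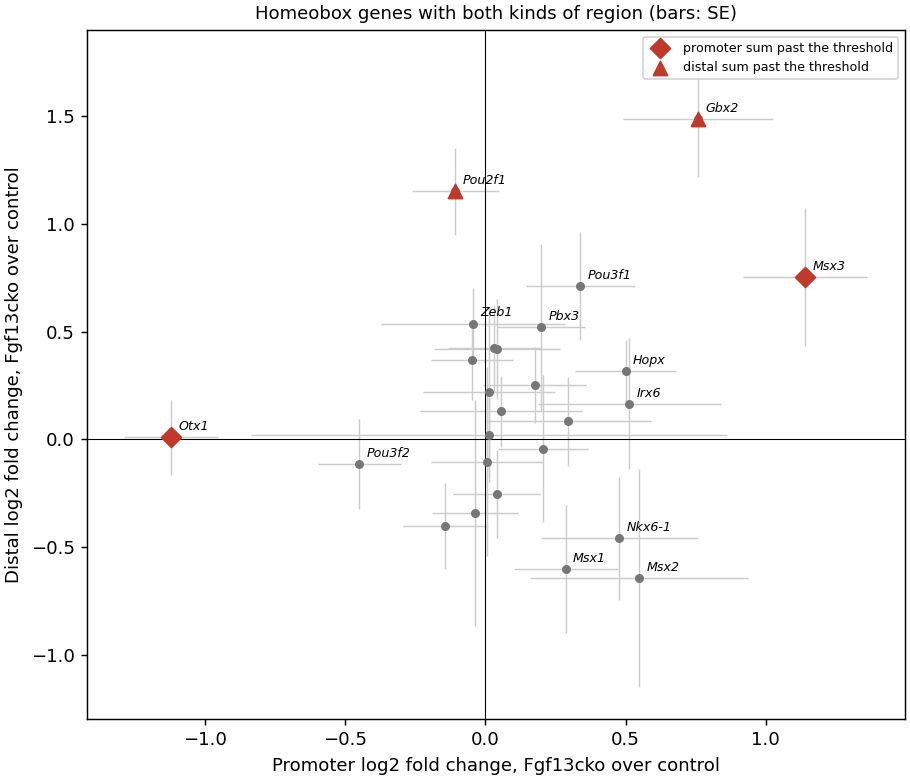
Promoter log2 fold change (x axis) against distal log2 fold change (y axis) for 26 of the 28 homeobox genes with both kinds of region, with SE bars. The correlation over the 28 is weak (r = 0.21): Otx1 is at -1.12 on the promoter axis and 0.01 on the distal axis, and Pou2f1 at -0.11 and 1.15.

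Single regions showed where these sums came from. Of 168 regions tested (1 low region of Nkx2-6 was left out by the count filter), 13 rose and 2 fell, against 5.73% and 1.79% of all 28814 (7.52% in either direction). The log2 fold change was positive in 93 and negative in 75, with a median of 0.10 (all regions: -0.03). Both Fgf13cko libraries lay above both controls in 51 and below in 30, against 26.9% and 27.1% of all regions. Of the 122 distal regions tested, 12 rose and 1 fell (all distal regions: 8.74% and 2.43%), and of 46 promoter regions 1 rose and 1 fell (all: 1.15% and 0.821%). Among distal regions, 2 of 39 inside their own gene rose, as did 5 of 27 inside another gene and 5 of 56 between genes. The edgeR fits without control 1 or control 2 rest on a lone control and called far fewer regions over the whole series. They cannot show whether the calls at member regions hold. DESeq2 did not call the regions of Dbx2 (adjusted p = 0.0972) and Msx3 (0.0911). It gave no adjusted p for the Zeb2 region that fell.

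The region with the smallest p lay in an intron of Cfap46, 33226 bases upstream of the Nkx6-2 start (chr7:139615555-139616491), at 138 and 134 against 389 and 331 in Fgf13cko (1.40, SE 0.19, adjusted p = 0.00559). A region in an intron of Inpp5a on the other side (chr7:139528502-139529177) read 29.6 and 27.7 against 86.7 and 124 (1.88, adjusted p = 0.00733). Another Inpp5a intron region (chr7:139538255-139539068) read 45.4 and 53.6 against 131 and 131 (1.40, adjusted p = 0.00837). Both Fgf13cko libraries were above both controls in all 3, and the other 2 Nkx6-2 regions had log2 fold changes of 0.14 and 0.65 without passing. The Gbx2 region (chr1:89876142-89877088) read 35.5 and 36.3 against 109 and 101 (1.54, adjusted p = 0.00818).

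The Meis1 region lay 437158 bases from the start, between genes (chr11:18580919-18582704), at 64.2 and 76.1 against 178 and 160 (1.26, adjusted p = 0.00959). The groups did not overlap. The other Meis1 regions had log2 fold changes from -0.40 to 0.10, so the regions of Meis1 did not move together.

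Others that rose were near Dbx1, Dbx2, Pax8, Pou2f1, Pou5f1-rs5 and Msx3. The Pax8 region (chr2:24503009-24503917) read 37.5 and 50.2 against 160 and 107 (1.59, adjusted p = 0.0121), and the Pou2f1 region (chr1:166048333-166049552) read 41.5 and 46.7 against 153 and 101 (1.52, adjusted p = 0.0129). The Dbx1 region in an intron of Nav2 (chr7:49522370-49524331) read 99.7 and 129 against 328 and 245 (1.32, adjusted p = 0.0114), and the Dbx2 region (chr15:95691157-95692131) read 80.9 and 74.4 against 155 and 132 (0.89, adjusted p = 0.0337). The 2 regions that fell were the Otx1 promoter (chr11:22001396-22002285), at 240 and 280 against 129 and 96.5 (-1.21, adjusted p = 0.0126), and a region 65849 bases upstream of Zeb2 (chr2:45183008-45183574), at 45.4 and 57.1 against 16.0 and 16.8 (-1.64, adjusted p = 0.0353). No library of one group overlapped the other group in any of these 6. Within genes of many regions, Zeb2 spanned -1.64 to 0.44, Meis2 -1.30 to 0.997 and Hopx -0.50 to 0.99, while the 6 Zfhx3 regions lay between -0.04 and 0.25. The Hopx start-site region (chr5:77114896-77115601) read 41.5 and 34.6 against 75.3 and 75.5 (0.99, adjusted p = 0.0584).

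**Figure D4:**
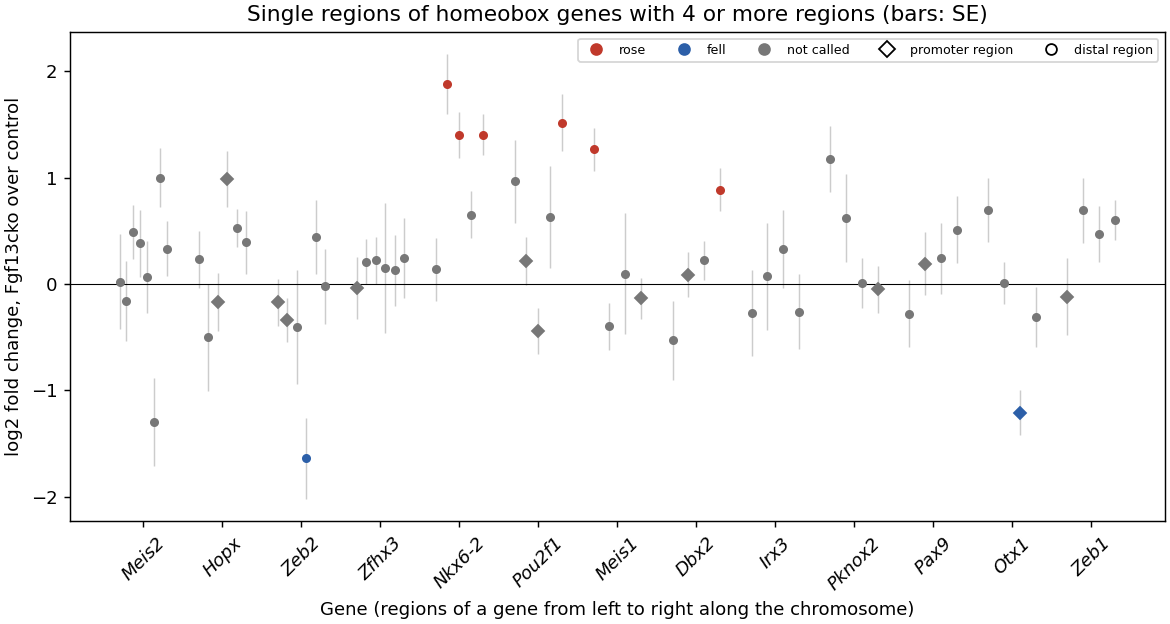
Log2 fold change with SE of the tested regions of homeobox genes with 4 or more regions, diamonds for promoter and circles for distal regions, red for regions that rose and blue for those that fell. Regions of most of these genes spread on both sides of 0, as for Zeb2 (-1.64 to 0.44), while all 5 Nkx6-2 regions lay above 0 (0.14 to 1.88).

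The neighbourhood of several risen regions was shifted upward as a whole. For each region, the median log2 fold change of the regions of all other genes within 1 Mb was taken. It was 0.56 to 0.59 for 5 of the 13 risen regions, the 3 of Nkx6-2 and those of Msx3 and Dbx1, all on chromosome 7. For the other 8 it ranged from -0.40 (Meis1) to 0.30 (Dbx2). Of all 169 member regions, 12 had a local median of at least 0.5. Chromosome 7 had a median of 0.16 over 1869 regions, of which 169 rose and 20 fell. Within 2 Mb of the Nkx6-2 start the 82 regions of other genes had a median of 0.44, with 9 that rose and 2 that fell, and the median was 0.40 at 44 promoters and 0.51 at 38 distal regions. The rises of the Nkx6-2 and Msx3 regions stood in surroundings that were themselves higher, and the part of that shift was not tested.

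**Figure D5:**
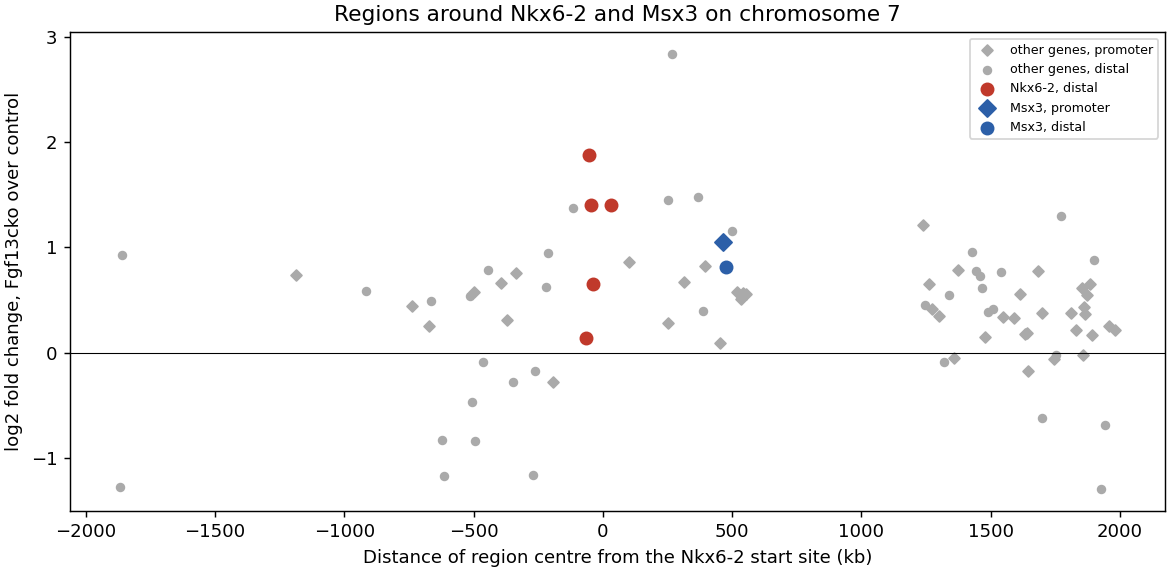
Log2 fold change of regions against distance from the Nkx6-2 start site on chromosome 7 (kb), diamonds for promoters and circles for distal regions, grey for other genes. Regions of other genes within 2 Mb have a median of 0.44, and 4 of the 5 Nkx6-2 regions and both Msx3 regions lie above that median.

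Homeobox regions lay farther from start sites than regions at large, which was not tested. The median distance of distal regions was 46308 bases against 35495 for all, and 37 of 123 (30.1%) lay over 100 kb away against 21.8%. Distal regions made up 72.8% of member regions against 60.4% of all. Promoter regions were wider, with a median of 1120 bases against 999, and the widest, at Cux1, covered 3254 bases.

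The table holds only regions with a peak in all 4 lists, so all 169 members had a peak in every library, with the authors' median fold enrichment between 4.11 and 4.64 per library. Peaks were also read, whether or not they lie in the table, at the start sites of the 42 genes that fit the name rule but had no promoter region. Of these, 22 had no peak in any list and 4 (Irx2, Lhx1os, Pou3f3 and Vax2os) had one in all 4 lists. The peaks of Lhx1os and Vax2os are those of the Lhx1 and Vax2 promoter regions already counted above. Irx3 and Nkx6-2 had a peak in both Fgf13cko lists and in neither control list (4.76% of 42, against 2.52% of 18257 other genes), with authors' folds of 3.78 and 4.04 for Irx3 and 3.13 and 3.53 for Nkx6-2. Six3 had the opposite pattern, a peak in both control lists and in no Fgf13cko list, with folds of 3.07 and 3.27 (2.38% against 0.367% of other genes). At a -log10 q of at least 5, no start kept a peak in both Fgf13cko lists and in neither control list. Lhx6 had a peak in Fgf13cko 2 alone and Otx2 in Fgf13cko 1 alone, Isl1 had one in control 2 and both Fgf13cko lists, and Lmx1b in none. Lhx6, Otx2, Lmx1b and Pou3f3 had no region in the table. Control lists held 38006 and 47148 peaks and Fgf13cko lists 64954 and 54373, and the part of that difference in these patterns was not tested.

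A further list held other homeobox genes and the cofactors of homeodomain proteins. Of 39 homeobox genes outside the members, 26 had a testable promoter. None was called by edgeR, against 1.95% of all genes that rose and 0.477% that fell, and DESeq2 also called none. On the promoter scale their median log2 fold change was 0.28, with 19 positive and 7 negative. Both Fgf13cko libraries lay above both controls in 15 and below in 2, against 26.1% and 25.2% of all genes. So higher promoter values were not particular to the NK-like class. An unadjusted edgeR p under 0.05 was found for 7 of the 26, against 2143 of all 11116 genes. Of the 23 with testable distal sums 1 rose, against 8.41% of all genes. It was Prox1, a determinant of dentate granule cells, at 26.1 and 16.0 against 62.5 and 54.3 (1.47, adjusted p = 0.0371). DESeq2 did not call it. Among 20 cofactors, 1 of 15 promoters rose and 2 fell, against 1.95% and 0.477% of all genes. Lmo1, a LIM-only protein, read 74.1 and 87.6 against 158 and 155 (0.95, adjusted p = 0.0240). Ssbp2, a partner of the LIM cofactor Ldb1, read 478 and 506 against 289 and 296 (-0.75, adjusted p = 0.0191), and the corepressor gene Ctbp1 read 255 and 226 against 142 and 158 (-0.68, adjusted p = 0.0485). Of 15 distal sums 2 rose, against 8.41% of all genes, Ctbp2 at 191 and 193 against 460 and 303 (0.99, adjusted p = 0.0228) and Lmo3 at 40.1 and 51.6 against 94.3 and 97.0 (1.06, adjusted p = 0.0373). In each of these 5 cofactor results the groups did not overlap. DESeq2 called the changes of Ssbp2 and Ctbp2 (adjusted p = 0.00350 and 0.00545), but not those of Lmo1 (0.104), Ctbp1 (0.161) and Lmo3 (0.0871). Over the 15 cofactor distal sums DESeq2 called 1 higher and 1 lower, against 530 and 259 of all 8441 genes. The lower one was not called by edgeR.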

How the data were processed

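Groups and replicate numbers came from the sample titles. Per the file headers, the authors deposited estimated counts, raw HOMER tag counts (multiples of 0.5, 50.2% of them whole) on mm10, and MACS2-style peak lists with each peak's fold enrichment (a ratio) and -log10 p and q values. Tools named in the submitters' processing notes are HOMER, MACS2, Bowtie2, DESeq2 and Picard. Versions, read shift and duplicate handling: not given in the sources used here.

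Estimated counts were rounded, 2 mitochondrial regions left out, and sums and regions tested with edgeR 4.0.16 (limma 3.58.1, R 4.3.3): quasi-likelihood, robust, TMM, filterByExpr, all 4 libraries, no covariate. DESeq2 1.42.0, other scalings, filters, distance limits, a replicate block and leaving out each library were alternatives. The fit was checked on simulated data. Named were members passing the threshold, the risen and fallen regions, a list of neural homeobox genes, and those with the highest and lowest promoters and most regions. Members and lists were chosen with earlier results of these data known. Results for some members are counted in the totals but are not reported here by name.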

Additional observations from a re-analysis of the deposited data

Results flagged for a closer look

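Outside the count table, 2 homeobox start sites, those of Irx3 and Nkx6-2, had a peak in both Fgf13cko lists and in neither control list (2.52% of other genes without a promoter region had this pattern). Six3 had the opposite pattern (0.367% of other genes). The lists differ in length, with 38006 and 47148 peaks for the controls and 64954 and 54373 for Fgf13cko, so the presence of a peak gives no level. The peaks had low enrichment, with authors' folds of 3.13 to 4.04 for Irx3 and Nkx6-2, and at a -log10 q of at least 5 no start kept the Fgf13cko pattern.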

How the results depend on the processing

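The widest dependence was on single libraries. Leaving out 1 library left 0 to 5 promoters that rose and 0 to 4 that fell, 1 to 17 distal sums that rose and 0 to 5 that fell, and 0 to 41 regions that rose and 0 to 16 that fell. The lone library left in a group is assumed to vary like the other group. Without control 1 or control 2, edgeR called 0 promoters of all genes (843 and 806 at an unadjusted p under 0.05; 3 and 4 of them members) and 231 and 242 distal sums, against 1143 and 2761 promoters and 2521 and 3819 distal sums without Fgf13cko 1 or 2. For regions the counts were 387, 138, 7012 and 10120, against 2168 with all libraries. Without control 2 no member region was called (19 at an unadjusted p under 0.05). Some results that were not called with all libraries changed sign between these subsets. Their promoter log2 fold changes ranged from -0.116 to 0.0182 (Meis1), -0.201 to 0.307 (Onecut2), -0.128 to 0.187 (Pax6), -0.287 to 0.0484 (Pou2f1), -2.52 to 0.903 (Pou4f2), -0.455 to 0.279 (Zeb1) and -0.00857 to 0.119 (Zfhx3). Their distal ranges were -0.469 to 0.415 (Cux1), -0.014 to 1.21 (Isl1), -0.228 to 0.183 (Otx1), -0.623 to 0.0185 (Pax6), -0.364 to 0.0741 (Pou3f2), -0.207 to 0.182 (Pou4f2), -0.453 to 0.722 (Six3) and -0.0446 to 0.235 (Zfhx3). The Pou4f2 promoter was called without Fgf13cko 2, at -2.52.

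Same-numbered libraries deviated in opposite directions (correlation -0.232 over 28814 regions), so the numbers are not shown to pair them. With the replicate block, promoters gave 1 and 1, distal sums 6 and 0 and regions 16 and 2 that rose and fell, and 3306 regions were called in all. In the crossed pairing, chosen after seeing the data, promoters gave 2 and 2, distal sums 7 and 1 and regions 17 and 2, with 823 promoters, 1914 distal sums and 3304 regions over all genes. In the block fits the Pou4f2 promoter was at -0.322 (crossed pairing -0.283) and distal Cux1 at 0.0125.

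DESeq2 called 0 promoters higher (2 at an unadjusted p under 0.05), 1 lower and 1 region lower, and 129 promoters over all genes against 270. Summing distal regions only within 100 kb gave 3 that rose and 1 that fell. Loess offsets called 419 promoters (308 higher, 111 lower), 1186 distal sums (652, 534) and 3353 regions (2148, 1205). A mean of at least 50 tags called 438 promoters. The single-region scale called 123 promoters (67, 56) and 1099 distal sums (896, 203), and library size 966 distal sums (558, 408), against 217 and 53 promoters, 710 and 315 distal sums and 1651 and 517 regions in the fits reported. Uncalled signs that turned on the single-region scale were the promoters of Onecut2 (-0.0577), Pax6 (-0.0445), Pou4f2 (-0.114) and Zfhx3 (-0.04), and distal Cux1 (0.0214). Distal Otx1 turned to -0.0918 (library size), -0.142 (loess), -0.0175 (DESeq2), -0.0106 (no filter), -0.113 (mean of 50) and -0.134 (100 kb). Distal Pou4f2 was at -0.0814, -0.0918, -0.00744, -0.00263 and -0.102 in the first 5 of these. Loess offsets gave distal Meis2 -0.00277 and Zfhx3 -0.0219. At a -log10 q of at least 5, 36 member regions kept a peak in all 4 lists and 0 starts showed the Fgf13cko pattern, and 75 regions kept a peak over at least 0.5 of their length. The cause of these differences was not tested.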
